A study of Homo sapiens with 118 samples.

Results

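The transcripts of 9 genes that write and erase DNA methylation were followed in HepaRG cells exposed to histone deacetylase inhibitors. They were DNMT1, DNMT3A, DNMT3B, UHRF1, TET1, TET2, TET3, MBD4 and TDG. The genes were chosen by function, with earlier results of these data known, and their rows were found by gene symbol in the count table. They gave 11 of 22068 rows, with a pair of rows each for DNMT1 and DNMT3A and 1 row for each other gene.

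HepaRG is an established human liver cell line, derived from a hepatocellular tumour, that was used here in its differentiated state. The data were 118 libraries in 40 groups, given by 8 inhibitors at 5 concentrations (C1 to C5, lowest to highest) after 72 hours of exposure with the chemical renewed each day. Groups held 3 libraries, 1 from each of 3 HepaRG batches, except that panobinostat C3 and trichostatin A C4 lacked batch 3. RNA was read by TempO-Seq, in which a pair of detector probes is ligated on its target transcript and counted by sequencing, so that a row measures 1 probe site and levels cannot be compared between rows.

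From C1 to C5 the labelled concentrations ran from 0.041722 to 0.86 µM for apicidin, from 0.177222 to 3.9 µM for mocetinostat and from 0.001468 to 0.084 µM for panobinostat. They ran from 4.94 to 94.5 µM for scriptaid, from 1.14333 to 44 µM for tacedinaline and from 0.018811 to 1.5237 µM for trichostatin A. For vorinostat they ran from 0.404778 to 23.5 µM, and for valproic acid the dose labels gave 100.478 to 3038, on another scale than the treatment protocol, so that its unit is unsettled. Panobinostat, scriptaid, trichostatin A and vorinostat are hydroxamic acids, mocetinostat and tacedinaline are benzamides, apicidin is a cyclic tetrapeptide and valproic acid is a short branched fatty acid. Solvent controls were not analysed here, so C1 of the same chemical was the reference, and a response already complete at C1 could not be seen. Scriptaid, tacedinaline and vorinostat lay on plate E and the other chemicals on plate H, so plate and chemical cannot be told apart.

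DNA methylation is copied after replication by DNMT1, which UHRF1 brings to half-methylated sites, and new methylation is placed by DNMT3A and DNMT3B. The TET enzymes oxidise methylcytosine, and TDG removes the oxidised bases so that base excision repair can restore cytosine. MBD4 is a glycosylase that binds methylated CpG and removes the thymine left when methylcytosine deaminates. In cells that rarely divide the copying machinery is usually low, while the erasers act without replication. How often the cells of these cultures divided was not measured.

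Total counts per library ranged from 1061359 to 5250260, and the mean total at C5 was between 0.489 times (vorinostat) and 0.972 times (trichostatin A) the mean at C1. The cell type label reads liver progenitor cells, whereas the protocol names differentiated cells. At C1 the summed level of 9 rows of hepatocyte markers (ALB, TTR, APOA1, APOB, CYP3A4, CYP2C8, HNF4A and TAT) was 11067 to 48338 CPM (counts relative to the scaled total of the library) and that of 8 rows of biliary and progenitor markers was 63.7 to 161, with no count of EPCAM. The lowest hepatocyte sum was that of trichostatin A C1 replicate 3, and the next lowest at C1 was 26409 CPM, in vorinostat. Libraries that stood apart from their group mates were scriptaid C4 replicate 3, the mocetinostat C2 libraries and trichostatin A C1 replicate 3, and the calls that changed when they were left out are given beside the results. In bulk lysates, fewer cells of a type and less RNA per cell cannot be told apart.

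MBD4, TDG and TET1 were measured well, and the other rows had fewer counts. MBD4 had 50 to 573 counts per library (median 266), TDG 17 to 155 (median 92), TET1 3 to 239 (median 86.5), TET2 3 to 74 (median 29) and TET3 0 to 40 (median 12). DNMT1 was near the limit of detection in both rows: DNMT1_1928 had 0 to 17 counts (median 2.5) and DNMT1_28309 was at 0 in 98 of 118 libraries. DNMT3B was at 0 in 108 libraries and never exceeded 7 counts. DNMT3A was seen by row DNMT3A_27133 with 0 to 52 counts (median 15.5) and barely by row DNMT3A_1932 with 0 to 23 (median 1), so its pair of probes differed in signal. UHRF1 had 0 to 40 counts (median 7).

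**Figure D1:**
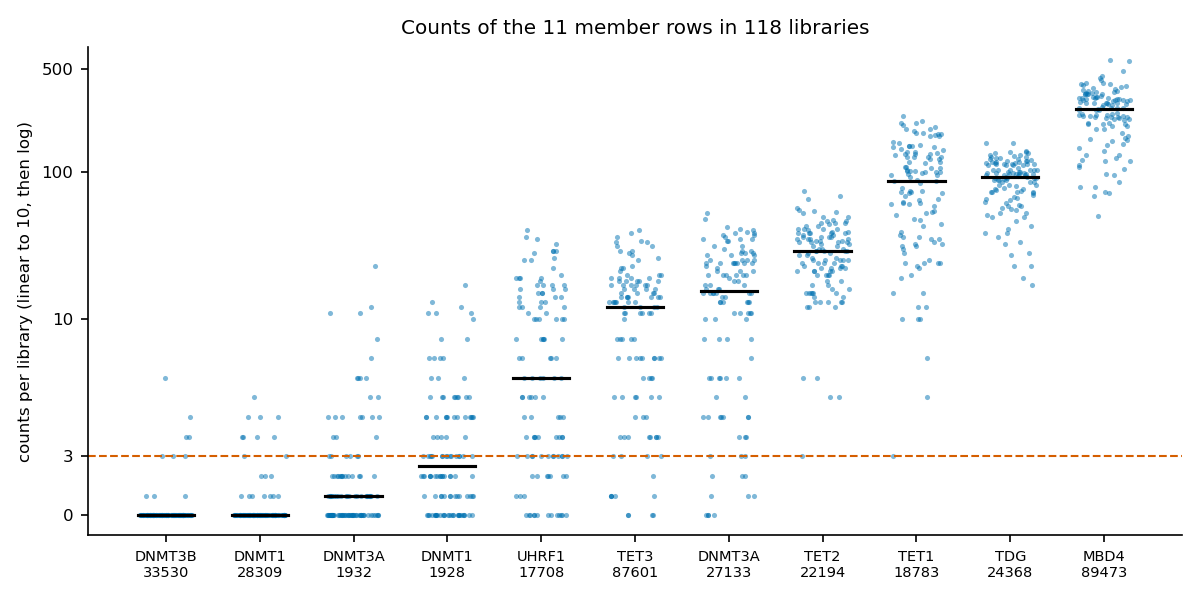
Counts of each of the 11 rows (gene symbol above probe number) in the 118 libraries, 1 point per library, with the median as a black bar and 3 counts as a dashed line; the vertical axis is linear up to 10 counts and logarithmic above. DNMT3B, DNMT1 and DNMT3A_1932 have medians of 2.5 counts or fewer, whereas the medians of TET1, TDG and MBD4 are 86.5, 92 and 266.

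A filter on low counts, applied within each chemical, left 6 of the 11 rows in all 8 chemicals: DNMT3A_27133, TET1, TET2, TET3, MBD4 and TDG. UHRF1 was left in 6 chemicals (not apicidin or vorinostat) and DNMT1_1928 in mocetinostat alone, while DNMT1_28309, DNMT3A_1932 and DNMT3B were left in none. A change passed the test when its adjusted p was under 0.05 over all features of that chemical and its fold was at least 1.5. Whether the libraries of C1 and C5 overlapped is given as a description. The share of all features without overlap is not given, so these statements are no evidence beyond the tests.

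At C5 against C1, 12 of 55 member tests passed and all 12 were falls. TET1 fell in 7 chemicals, MBD4 in tacedinaline and vorinostat, DNMT3A (DNMT3A_27133) in mocetinostat and scriptaid, and TET3 in vorinostat. TET2, TDG, UHRF1 and DNMT1 did not pass in any chemical in which they were tested. No member rose by the edgeR test or by DESeq2, and 1 of the 16 positive changes had an unadjusted p under 0.05. For the background, the share of all features tested that passed as falls was 15.0% in apicidin, 15.7% in mocetinostat, 9.46% in panobinostat, 17.0% in scriptaid, 20.1% in tacedinaline, 0.0154% in trichostatin A, 6.22% in valproic acid and 24.9% in vorinostat. The share that passed as rises was 13.8% in apicidin, 14.8% in mocetinostat, 6.77% in panobinostat, 12.8% in scriptaid, 18.7% in tacedinaline, 0.0% in trichostatin A, 4.84% in valproic acid and 22.7% in vorinostat. Set against these shares, 2 of 8 for MBD4 and for DNMT3A and 1 of 8 for TET3 were near the background. TET1 passed in 7 of 8 tests, but the shares are for single chemicals. The share of all features that fell in 7 of the 8 chemicals is not given, so whether that count is unusual was not tested. Among the companion genes, MAT1A and CYP2C8 also fell in 7. The median log2 change of the tested member rows was between -0.998 (tacedinaline) and 0.13 (trichostatin A). The median over all features was between -0.00 and 0.08. The member medians rest on 6 to 8 rows per chemical, and the spread of medians over so few rows is not given. Among rows tested in all 8 chemicals, the median change over chemicals ran from -1.82 (TET1) to -0.02 (TET2).

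**Figure D2:**
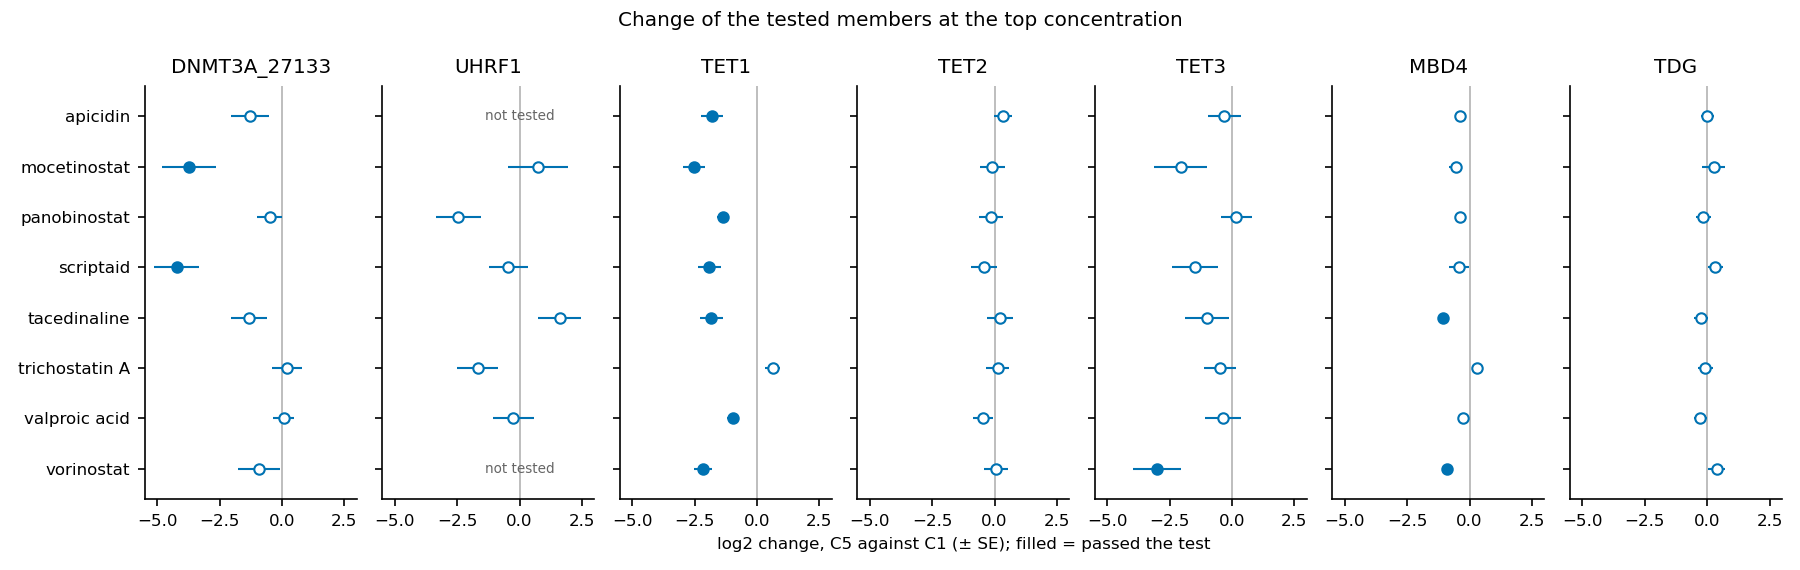
Log2 change at C5 against C1 (horizontal axis) of the 7 member rows tested in 6 or more chemicals, 1 panel per row and 1 line per chemical; points are edgeR estimates, bars are ± SE and filled points passed the test. TET1 is filled in 7 of 8 chemicals and lies right of 0 in trichostatin A alone, and no point of TET2 or TDG is filled.

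TET1, the oxidase that starts active demethylation, was the member that fell most widely. In apicidin its levels in batches 1, 2 and 3 were 27.0, 25.4 and 31.6 CPM at C1 and 2.61, 11.5 and 9.70 CPM at C5, and it fell by 1.80 log2 units (edgeR, SE 0.44, adjusted p = 0.00377). In mocetinostat they were 26.9, 27.4 and 31.2 CPM at C1 and 6.19, 3.08 and 4.55 CPM at C5, and TET1 fell by 2.54 log2 units (edgeR, SE 0.45, adjusted p = 0.000410). In panobinostat they were 47.5, 44.2 and 44.7 CPM at C1 and 20.7, 15.0 and 17.5 CPM at C5, and TET1 fell by 1.37 log2 units (edgeR, SE 0.24, adjusted p = 0.000376). In these 3 chemicals each C5 library lay below each C1 library, and mocetinostat had the lowest group mean at C5. In scriptaid the levels were 32.5, 31.7 and 39.6 CPM at C1 and 9.24, 12.5 and 3.82 CPM at C5, and TET1 fell by 1.91 log2 units (edgeR, SE 0.47, adjusted p = 0.00462). In tacedinaline they were 30.3, 29.9 and 32.0 CPM at C1 and 1.48, 5.14 and 17.5 CPM at C5, and TET1 fell by 1.83 log2 units (edgeR, SE 0.45, adjusted p = 0.000953). The C1 libraries of tacedinaline were close together and its C5 libraries were spread widely, batch 3 being the highest. In valproic acid TET1 levels were 35.2, 41.5 and 51.7 CPM at C1 and 19.8, 27.0 and 18.3 CPM at C5, and it fell by 0.97 log2 units (edgeR, SE 0.24, adjusted p = 0.00935). In vorinostat they were 33.5, 37.8 and 28.6 CPM at C1 and 4.90, 8.95 and 5.90 CPM at C5, and TET1 fell by 2.18 log2 units (edgeR, SE 0.36, adjusted p = 4.81e-06). Groups C1 and C5 did not overlap in these 2 chemicals either. Over all chemicals TET1 was lower at C5 than at C1 in 21 of 24 batch pairs, those of the 7 chemicals in which it fell. These 7 were picked by the fall in the same libraries, so the count is no evidence beyond the tests.

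In trichostatin A TET1 did not pass. Its levels were 31.2, 29.9 and 21.8 CPM at C1 and 63.8, 35.0 and 27.1 CPM at C5, a log2 change of 0.62 (SE 0.29, adjusted p = 0.511). The groups overlapped, and C5 was above C1 in 3 of 3 batches. Without C1 replicate 3, which stood apart, the change was 0.47 (adjusted p = 0.554). In trichostatin A 2 features fell and 0 rose at C5 among 12993 tested by edgeR, with 1255 at an unadjusted p under 0.05. Over all its comparisons 0 of 35 member tests passed by edgeR, 3 had an unadjusted p under 0.05, and 0 passed by DESeq2.

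**Figure D3:**
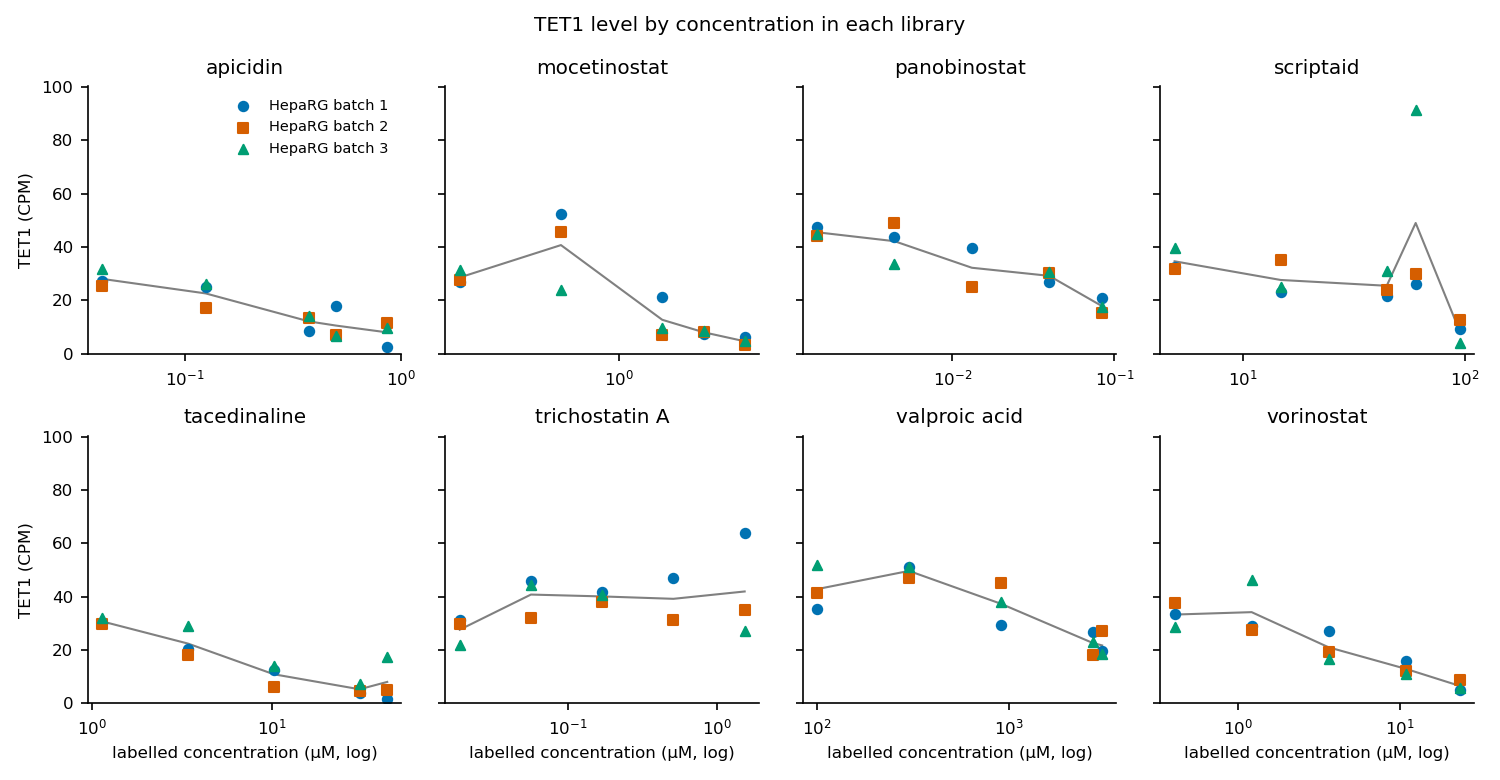
TET1 level (CPM, vertical axis) against labelled concentration (logarithmic horizontal axis; the unit for valproic acid is unsettled) in 8 chemicals, with 1 symbol per library coloured by HepaRG batch and a grey line through the group means. The C5 libraries lie below the C1 libraries in 7 chemicals and overlap them in trichostatin A, and scriptaid C4 batch 3 (91.2 CPM) stands far above its group mates.

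The falls of TET1 that passed lay at C3 to C5. At C2 no member passed in any chemical by edgeR (0 of 55 tests, 1 at an unadjusted p under 0.05) or by DESeq2. The share of all features that passed at C2 was 0.102% in apicidin, 0.191% in mocetinostat, 0.0% in panobinostat, 0.0% in scriptaid, 0.385% in tacedinaline, 0.0% in trichostatin A, 0.0% in valproic acid and 0.0172% in vorinostat. At C3 1 of 55 member tests passed by edgeR, 5 had an unadjusted p under 0.05 and 3 passed by DESeq2. The edgeR pass was TET1 in tacedinaline, which fell by 1.47 log2 units (edgeR, SE 0.45, adjusted p = 0.0204). In apicidin the TET1 change at C3 was -1.21 (edgeR, SE 0.43, adjusted p = 0.0575), which did not pass. In mocetinostat the TET1 (row TET1_18783) change at C3 was -1.15 (SE 0.41, adjusted p = 0.0866), and without the C2 libraries that stood apart it passed (-1.19, adjusted p = 0.04996). The share of all features at C3 was 15.3% in apicidin, 11.6% in mocetinostat, 0.00763% in panobinostat, 1.34% in scriptaid, 11.9% in tacedinaline, 0.0% in trichostatin A, 1.13% in valproic acid and 7.06% in vorinostat. At C4 7 of 55 passed: TET1 in apicidin, mocetinostat, tacedinaline, valproic acid and vorinostat, and MBD4 in tacedinaline and vorinostat. At C4 TET1 fell by 2.47 log2 units (edgeR, SE 0.46, adjusted p = 3.32e-05) in tacedinaline and by 0.90 (SE 0.24, adjusted p = 0.0149) in valproic acid, the extremes among the 5. The share of all features at C4 was 22.3% in apicidin, 23.7% in mocetinostat, 2.56% in panobinostat, 4.87% in scriptaid, 32.8% in tacedinaline, 0.0% in trichostatin A, 11.9% in valproic acid and 32.3% in vorinostat. In panobinostat and scriptaid TET1 passed at C5 alone.

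A slope on log2 concentration, which uses all libraries of a chemical and is expressed as the fitted change from C1 to C5, passed for TET1 in 6 chemicals. The fitted changes ran from -2.94 (mocetinostat, SE 0.56, adjusted p = 0.000443) to -1.12 (valproic acid, SE 0.23, adjusted p = 0.00122). In scriptaid the slope was -0.52 (SE 0.61, adjusted p = 0.619), and without C4 replicate 3 it was -1.20 (adjusted p = 0.0417), which passed. In mocetinostat the slope without the C2 libraries was -2.31 (adjusted p = 9.03e-05). Of 55 member slopes 9 passed, all negative: 6 of TET1, 2 of MBD4 and 1 of DNMT3A. The share of all features whose slope passed was 34.4% in apicidin, 35.6% in mocetinostat, 17.4% in panobinostat, 13.0% in scriptaid, 43.3% in tacedinaline, 0.0616% in trichostatin A, 14.9% in valproic acid and 47.4% in vorinostat.

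The calls of TET1 (row TET1_18783) in apicidin and valproic acid were lost when single batches were left out. Without batch 3 the apicidin change at C5 had an adjusted p of 0.0508. In valproic acid the adjusted p was 0.0959 without batch 1, 0.150 without batch 3, and 0.0998 with all 118 libraries in 1 fit. The other 5 TET1 calls passed under each alternative run.

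The size of the TET1 change at C5 differed among the 8 chemicals (F test of the interaction, adjusted p = 2.06e-05). Across all features 30.3% passed that test. Each chemical was compared at its own top concentration, and these concentrations differ. Without trichostatin A the adjusted p over the remaining 7 was 0.211, where 21.4% of all features passed. Pairs of chemicals were then compared, 28 for each of 9 member rows, with p-values adjusted over all features and pairs, and 18 of 252 member tests passed against 8.01% of all tests. For TET1, 7 of the 8 pairs that passed were trichostatin A against each other chemical, and the other pair was mocetinostat against valproic acid, with a log2 difference of -1.64 (SE 0.55, interval -2.73 to -0.56, adjusted p = 0.0480). Without trichostatin A C1 replicate 3, TET1 still differed among the 8 chemicals (adjusted p = 0.000602), and trichostatin A still differed from 6 chemicals but not from valproic acid (1.43, adjusted p = 0.110). The pair of mocetinostat and valproic acid did not pass in that fit either (-1.62, adjusted p = 0.0562). Among the hydroxamic acids, trichostatin A minus vorinostat was 2.90 (SE 0.58, interval 1.77 to 4.02, adjusted p = 0.000129). Panobinostat minus vorinostat was 0.94 (SE 0.58, interval -0.19 to 2.07, adjusted p = 0.393) and scriptaid minus vorinostat was 0.32 (SE 0.60, interval -0.85 to 1.49, adjusted p = 0.862), intervals that reach differences of 2.07 and 1.49. Between the benzamides, mocetinostat minus tacedinaline was -0.71 (SE 0.59, interval -1.86 to 0.44, adjusted p = 0.572).

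Of the other TET genes, TET2 passed in no chemical and TET3 in 1. TET2, an oxidase without the CpG-binding domain of TET1, had 4.48 to 12.2 CPM over the 24 C1 libraries. Its change at C5 was between -0.46 (valproic acid) and 0.34 (apicidin), with 4 negative of 8. None of its 32 tests at C2 to C5 passed by edgeR or by DESeq2, and 0 had an unadjusted p under 0.05. In mocetinostat TET2 levels were 6.33, 6.57 and 9.43 CPM at C1 and 5.41, 9.75 and 4.55 CPM at C5. In vorinostat they were 10.1, 9.82 and 9.32 CPM at C1 and 10.6, 6.12 and 11.8 CPM at C5, groups that overlapped where TET1 groups were far apart. The interval of the TET2 change in vorinostat ran from -0.92 to 1.03, which is wide enough to hold a change of nearly 1 on the log2 scale in either direction. TET3, a further oxidase, had negative changes in 7 of 8 chemicals. In vorinostat its counts were 8, 33 and 12 at C1 and 1, 1 and 1 at C5. The edgeR test passed (adjusted p = 0.00869), and the ratio of C1 to C5 over the summed counts was 9.93 (exact binomial interval 3.22 to 49.7, counting error only). Batch 2 held 33 of the 53 C1 counts, and without it TET3 in vorinostat was removed by the low-count filter and could not be tested. In mocetinostat TET3 levels were 9.49, 3.17 and 3.50 CPM at C1 and 0.258, 1.54 and 1.82 CPM at C5, groups that did not overlap, with a change of -2.06 (SE 1.06, adjusted p = 0.157) that did not pass.

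The promoter windows of TET1 and TET2 are shown because 1 of the pair fell in 7 chemicals and the other in none. They are the 250 bases before the most upstream start site in the RefSeq promoter table (GRCh38.p14), 5′ to 3′ on the gene's strand, in lower case with motif matches in capitals.
TET1, chr10:68560087-68560336, plus strand: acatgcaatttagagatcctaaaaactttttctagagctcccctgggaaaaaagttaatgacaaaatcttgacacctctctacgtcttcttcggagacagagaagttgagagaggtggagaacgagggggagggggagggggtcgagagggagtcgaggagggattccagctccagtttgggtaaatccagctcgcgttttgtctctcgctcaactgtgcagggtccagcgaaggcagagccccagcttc
TET2, chr4:105145625-105145874, plus strand: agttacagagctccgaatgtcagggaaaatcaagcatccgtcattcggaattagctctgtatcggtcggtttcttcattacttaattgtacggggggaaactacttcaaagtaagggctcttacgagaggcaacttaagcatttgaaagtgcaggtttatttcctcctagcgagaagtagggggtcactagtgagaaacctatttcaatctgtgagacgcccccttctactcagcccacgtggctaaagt
TET1 lies on chromosome 10 from 68560337 to 68694487 and TET2 on chromosome 4 from 105145875 to 105279803. Both strands were searched for TTTCGCGC, TTTGGCGC and TTTCCCGC (E2F type), CCAAT (NF-Y type) and GGGCGG (GC box), and neither window holds any of them. Among 35116 windows of that length, 0.439%, 0.550%, 1.39%, 32.0% and 42.6% hold these motifs in that order. The TET1 window holds 9 CpG and the TET2 window 10, with a median of 11 over all windows.

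MBD4, the thymine glycosylase, fell in 2 chemicals and lay lower at C5 in 7. In tacedinaline its levels were 80.9, 80.2 and 91.0 CPM at C1 and 39.1, 25.0 and 52.6 CPM at C5, and it fell by 1.05 log2 units (edgeR, SE 0.23, adjusted p = 0.000275). In vorinostat they were 60.3, 101 and 74.0 CPM at C1 and 40.8, 32.0 and 46.0 CPM at C5, and MBD4 fell by 0.90 log2 units (edgeR, SE 0.23, adjusted p = 0.00120). Groups C1 and C5 did not overlap in either chemical. Without batch 2, the vorinostat change was -0.52 (adjusted p = 0.106). The slopes of MBD4 passed in the same 2 chemicals, -1.04 (SE 0.22, adjusted p = 0.000299) in tacedinaline and -1.02 (SE 0.22, adjusted p = 0.000654) in vorinostat. At C4 MBD4 fell by 0.66 log2 units (edgeR, SE 0.22, adjusted p = 0.0186) in tacedinaline and changed by -0.62 (SE 0.22, adjusted p = 0.0228) in vorinostat. In the other 5 chemicals with a negative value the C5 change was between -0.55 (mocetinostat, adjusted p = 0.124) and -0.26 (valproic acid, adjusted p = 0.396), and none passed. Over all chemicals MBD4 was lower at C5 than at C1 in 21 of 24 batch pairs, those of the 7 chemicals with a negative change. These 7 were picked by that sign in the same libraries, so the count is no evidence beyond the tests. In trichostatin A the levels were 77.0, 62.6 and 57.6 CPM at C1 and 89.2, 77.0 and 70.5 CPM at C5, higher in 3 of 3 batches with a change of 0.28 (SE 0.18, adjusted p = 0.666).

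MBD4 (row MBD4_89473) was high in 3 libraries that stood apart. Mocetinostat C2 had 154, 162 and 101 CPM in batches 1, 2 and 3, whereas C1 had 89.6, 80.4 and 81.9. At C2 the change was 0.81 (SE 0.26, adjusted p = 0.151), and it passed without batch 3 (0.99, adjusted p = 0.0323) and with all libraries in 1 fit (0.73, adjusted p = 0.0393). In those fits 24.4% and 9.40% of all features passed at mocetinostat C2, against 0.191% with the chemical fitted by itself on all its libraries. Scriptaid C4 had 62.7, 52.5 and 228 CPM. The MBD4 slope in scriptaid was 0.02 (SE 0.42, adjusted p = 0.982), and without C4 replicate 3 it was -0.47 (adjusted p = 0.0698). In trichostatin A the MBD4 change at C5 without C1 replicate 3 was 0.18 (adjusted p = 0.761). TET1 was high in the same libraries, at 52.4, 45.7 and 23.9 CPM in mocetinostat C2 and 26.0, 29.7 and 91.2 CPM in scriptaid C4.

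The MBD4 change at C5 differed among the 8 chemicals (adjusted p = 0.0254), but not with another library scaling (relative log expression, adjusted p = 0.0767) or without trichostatin A (adjusted p = 0.304). It was also lost without trichostatin A C1 replicate 3 (adjusted p = 0.0919), without batch 1 (adjusted p = 0.195) and without batch 2 (adjusted p = 0.680). The pairs that passed were tacedinaline minus trichostatin A, -1.38 (SE 0.35, interval -2.07 to -0.69, adjusted p = 0.00430), and trichostatin A minus vorinostat, 1.26 (SE 0.35, interval 0.57 to 1.96, adjusted p = 0.0119). Between the benzamides, mocetinostat minus tacedinaline was 0.48 (SE 0.35, interval -0.20 to 1.17, adjusted p = 0.498).

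TDG, the glycosylase that acts after TET oxidation, did not pass anywhere. Over the 24 C1 libraries its level was 17.3 to 34.5 CPM. Its C5 change was between -0.28 (valproic acid) and 0.38 (vorinostat), with 4 negative of 8. Of 32 tests at C2 to C5, 0 passed by edgeR or DESeq2 and 0 had an unadjusted p under 0.05. In tacedinaline TDG levels were 30.3, 25.2 and 33.0 CPM at C1 and 15.8, 32.5 and 22.4 CPM at C5. In vorinostat they were 22.9, 18.4 and 34.5 CPM at C1 and 18.8, 38.1 and 33.6 CPM at C5. The groups overlapped in both chemicals in which MBD4 groups did not.

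The promoter windows of the glycosylases are shown on the same terms, since MBD4 fell in 2 chemicals and TDG in none.
MBD4, chr3:129439949-129440198, minus strand: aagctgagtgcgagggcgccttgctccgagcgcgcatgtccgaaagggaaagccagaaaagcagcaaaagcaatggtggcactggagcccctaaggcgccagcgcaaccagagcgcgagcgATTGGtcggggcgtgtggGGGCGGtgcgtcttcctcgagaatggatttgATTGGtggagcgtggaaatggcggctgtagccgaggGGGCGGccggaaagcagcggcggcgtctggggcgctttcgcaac
TDG, chr12:103965622-103965871, plus strand: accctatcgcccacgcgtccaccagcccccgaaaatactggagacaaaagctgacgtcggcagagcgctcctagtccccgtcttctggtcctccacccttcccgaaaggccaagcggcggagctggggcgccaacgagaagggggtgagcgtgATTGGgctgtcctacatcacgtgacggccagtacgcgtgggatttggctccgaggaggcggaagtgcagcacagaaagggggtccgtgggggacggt
MBD4 lies on chromosome 3 from 129430947 to 129439948 and TDG on chromosome 12 from 103965872 to 103988874. The MBD4 window holds 2 matches of CCAAT and 2 of GGGCGG (capitals, read on either strand), and the TDG window 1 of CCAAT. They hold 26 and 22 CpG. Neither holds an E2F-type match. Of the 9 member windows 1 does, that of UHRF1, with 1 match of TTTCCCGC. For UHRF1, DNMT3B and TET3 the annotated gene begins upstream of the start site used, so their windows lie within the gene bounds.

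DNMT3A, a writer of new methylation, fell in 2 chemicals by row DNMT3A_27133. In mocetinostat its counts were 37, 41 and 31 at C1 and 0, 7 and 0 at C5 (9.76, 9.29 and 8.35 CPM and 0, 1.80 and 0 CPM), and it fell by 3.73 log2 units (edgeR, SE 1.07, adjusted p = 0.0143). In scriptaid its counts were 22, 24 and 15 at C1 and 0, 1 and 1 at C5. There the test passed (edgeR adjusted p = 0.00157) and the ratio of C1 to C5 over the summed counts was 22.5 (exact binomial interval 5.97 to 190, counting error only). C1 and C5 did not overlap in either chemical. The mocetinostat call was lost without batch 1 (adjusted p = 0.0513) and without batch 3 (adjusted p = 0.0858), and the scriptaid call without batch 2 (adjusted p = 0.0547). At C4 in mocetinostat the change of DNMT3A_27133 was -2.80 (SE 0.99, adjusted p = 0.0508), and it passed without the C2 libraries (-2.86, adjusted p = 0.0485). The slope passed in mocetinostat, -3.60 (SE 0.84, adjusted p = 0.00266), but not without batch 3 (adjusted p = 0.0504). In scriptaid the slope was -0.50 (SE 0.93, adjusted p = 0.776), with C4 levels of 13.0, 6.00 and 6.57 CPM.

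In valproic acid DNMT3A levels were 4.81, 7.63 and 9.23 CPM at C1 and 7.17, 11.4 and 3.67 CPM at C5, with a change of 0.06 (SE 0.41, adjusted p = 0.950). The DNMT3A change differed among chemicals (adjusted p = 0.000701, and 0.00271 without trichostatin A). It was lost without batch 1 (adjusted p = 0.0694). The 6 pairs that passed set mocetinostat or scriptaid against panobinostat, trichostatin A or valproic acid, with mocetinostat minus valproic acid at -3.85 (SE 0.95, interval -5.72 to -1.98, adjusted p = 0.00315). Between the benzamides, mocetinostat minus tacedinaline was -2.41 (SE 1.01, interval -4.38 to -0.43, adjusted p = 0.142). The weaker row DNMT3A_1932 passed the test over 8 chemicals (adjusted p = 0.0214), on 230 counts in all 118 libraries, and no fold is given for it. That call was lost without batch 1 (adjusted p = 0.161) and without batch 2 (adjusted p = 0.484), and the row was filtered out without batch 3. The 2 rows did not share a direction in mocetinostat. There DNMT3A_1932 was higher at C5 in 1 batch and lower in 0, whereas DNMT3A_27133 was lower in 3 of 3. In scriptaid both rows were lower in 3 of 3 batches.

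**Figure D4:**
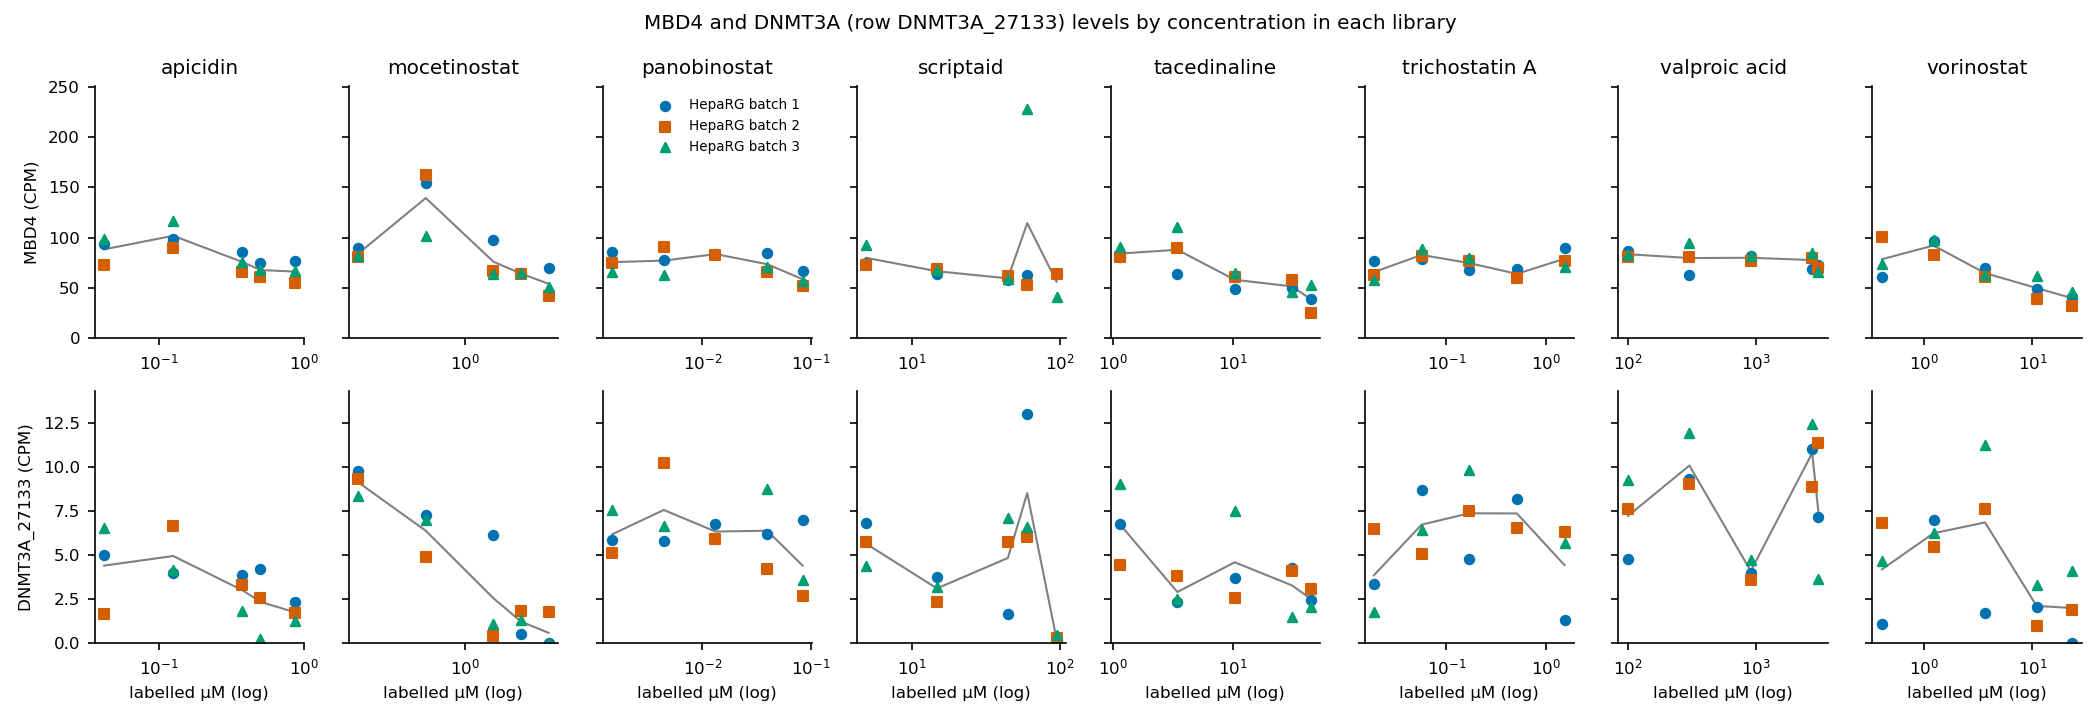
Levels (CPM, vertical axes) of MBD4 (upper row) and DNMT3A by row DNMT3A_27133 (lower row) against labelled concentration (logarithmic horizontal axes; the unit for valproic acid is unsettled) in 8 chemicals, 1 symbol per library coloured by HepaRG batch, with a grey line through the group means. MBD4 declines toward C5 in tacedinaline and vorinostat, DNMT3A nears 0 at C5 in mocetinostat and scriptaid, and MBD4 in scriptaid C4 batch 3 reaches 228 CPM.

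UHRF1 (row UHRF1_17708), which brings DNMT1 to newly copied DNA, varied widely between replicates. In panobinostat its counts were 25, 26 and 13 at C1 and 3, 0 and 7 at C5, groups that did not overlap, and its change was -2.45 (SE 0.91, adjusted p = 0.0663). It passed there with the HepaRG batch as a block (-2.75, adjusted p = 0.0474), by DESeq2 (-2.48, adjusted p = 0.0228) and without the low-count filter (-2.44, adjusted p = 0.0362). Over 10 settings the UHRF1 change in panobinostat ran from -3.68 to -1.76 and its adjusted p reached 0.320, so it depended on the processing. In tacedinaline its counts were 2, 3 and 12 at C1 and 2, 29 and 13 at C5, with a change of 1.60 (SE 0.88, adjusted p = 0.139). The estimates for UHRF1 had both signs, and the test of a difference among chemicals gave an adjusted p of 0.187. In vorinostat, where it was filtered out, its counts were 3, 29 and 12 at C1 and 0, 3 and 0 at C5, a ratio of 8.24 (exact binomial interval 2.64 to 41.5, counting error only). DNMT1_1928 in mocetinostat changed by 0.77 (SE 0.88, adjusted p = 0.551). In vorinostat, where the row was filtered out, its counts were 5, 2 and 6 at C1 and 0 in each C5 library, at least 2.43-fold lower against a floor of 3 counts over the group. With all libraries in 1 fit it did not pass there (adjusted p = 0.0503). In tacedinaline its counts were 2, 5 and 13 at C1 and 0, 1 and 3 at C5, and in the joint fit the adjusted p was 0.316. C5 lay wholly below C1 in these 2 of 8 chemicals, a description of libraries near the limit of detection. DNMT3B reached 10 counts in 1 group, tacedinaline C5, with 7, 0 and 3 counts in batches 1, 2 and 3.

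Levels of the members were followed across the 40 groups, centred within each chemical, as a description. TET1 had its highest correlation within the family with MBD4 (Pearson r = 0.886 over 40 group means), then with DNMT3A_27133 (r = 0.796), and r was 0.0476 with TET2 and -0.281 with TDG. Both rows of a correlation were read in the same libraries, which differ in depth. Centring was on the mean of the groups of a chemical, not on C1. The groups also include libraries of mocetinostat C2 and scriptaid C4 that stood apart, in which TET1 and MBD4 were both high. No r without those libraries is given. Over 11288 features tested in all chemicals, the rows most like TET1 were UBXN4_13724 (r = 0.966) and NCOA2_13902 (r = 0.963). Those most like MBD4 were DCAF4L2_20195 (0.926) and RNF220_33543 (0.914), and those most like DNMT3A_27133 were MGAT4B_18686 (0.867) and MAOB_13383 (0.864). For TET3 they were L3MBTL4_13105 (0.768) and LHFPL6_22621 (0.739), for TDG SNRPD1_6636 (0.763) and SWI5_26410 (0.754), and for TET2 ITPRID2_22308 (0.567) and ALG13_90583 (0.529).

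Companion genes and cell markers were counted by list at C5. For comparison, 6.22% to 24.9% of all features fell and 4.84% to 22.7% rose in the 7 chemicals other than trichostatin A. In trichostatin A 0.0154% fell and 0.0% rose. Partners of maintenance methylation (8 rows, among them HELLS, PCNA, LIG1 and USP7) gave 0 passes in 46 edgeR tests at C5, with 4 at an unadjusted p under 0.05 and medians between -0.41 and 0.46. In base excision repair (18 rows, among them APEX1, XRCC1, POLB and the GADD45 genes) 7 of 127 tests rose and 16 fell, with medians between -0.48 and 0.07. In the supply of methyl donor and alpha-ketoglutarate (10 rows) 2 of 56 rose and 16 fell, with medians between -0.56 and -0.09. MAT1A, the liver enzyme that makes S-adenosylmethionine, fell in 7 chemicals with a median of -3.62. Of 15 rows of germline genes that promoter methylation keeps silent, such as DAZL and MAEL, 1 to 4 were left by the filter in each chemical, and 1 of 19 tests rose and 4 fell.

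Markers of the cell state passed tests in the 7 chemicals in which TET1 fell. None passed in trichostatin A, where 2 of 12993 features passed at C5. Hepatocyte markers fell in 58 of 63 tests in those chemicals and in 0 of 9 in trichostatin A. Their summed level at C5 was 2033 to 36139 CPM over all libraries, and the group means were 2573 in tacedinaline and 32103 in trichostatin A. CYP2C8, a drug-metabolising cytochrome P450, fell in 7 chemicals (median -5.96), CYP3A4, another, in 7 by both rows (medians -5.93 and -5.66), and HNF4A, a hepatocyte transcription factor, in 6 (median -3.60). Cycling cell markers (15 rows, with E2F1 at 0 to 2 counts at C1) fell in 47 of 91 tests in the 7 chemicals and rose in 4. Their sum was 1731 to 3001 CPM at C1 and 269 to 2670 CPM at C5, and TYMS, MKI67, TOP2A and CCNA2 each fell in 6 or 7 chemicals. Falls of cycling cell markers ranged from 2 of 14 tests in mocetinostat to 11 of 12 in vorinostat. In mocetinostat 1 of the 14 rose, the median was -0.20, and 15.7% of all features fell. Biliary and progenitor markers rose in 11 of 29 tests and fell in 0, their sum going from 63.7 to 161 CPM at C1 to 64.1 to 225 CPM at C5. Their median change was 0.17 to 1.31 in the 7 chemicals and 0.75 in trichostatin A, where 0 of 5 tests passed. Stromal markers (7 rows) rose in 7 of 23 and fell in 7 of 23. All 7 falls were of COL3A1: COL1A1 rose in 6 chemicals (median 1.63) while COL3A1 (row COL3A1_28516) fell in 7 (median -2.45). The COL3A1_28516 estimates ran from -3.73 to -1.47 over all 8 chemicals, so that in trichostatin A was also negative. The part of these markers in the changes of TET1, MBD4 and DNMT3A was not tested.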

How the data were processed

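Whole-transcriptome TempO-Seq counts were analysed in 118 HepaRG libraries. The authors deposited raw counts per probe, with no normalization; the submitters' processing notes name bcl2fastq 2.20.422, fastp 0.23.2, STAR 2.7.10b and DESeq2 1.38.0. Of 22069 rows 1 was left out, because 88 libraries had no value in it, and 0 columns were unmapped. Groups came from the labels of chemical, concentration and HepaRG batch, and nothing in the labels describes how these batches differ, so p-values measure the spread between these libraries.

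Each chemical was fitted by itself in edgeR 4.0.16 (R 4.3.3; filterByExpr with a minimum count of 10, TMM scaling, quasi-likelihood F test, Benjamini-Hochberg adjustment over all features tested), with C2 to C5 against C1 and a slope on log2 concentration. A call needed an adjusted p under 0.05 and a fold of at least 1.5. SE was the absolute log2 change over the square root of F. Intervals of log2 changes are 95% intervals, the estimate plus or minus 1.96 SE by the normal distribution. They are not adjusted and are narrower than the F test would give. They can therefore exclude no change where the adjusted p did not pass. Differences between chemicals came from 1 fit of all 118 libraries. CPM were counts over TMM-scaled library sizes, and a prior count of 2 was used for log2 CPM. Ratios with 3 or fewer counts on one side have exact binomial intervals, which cover counting error only. Companion genes were named where they passed in the same direction at C5 in at least 6 of the 8 chemicals, at most 4 per list by the largest median change. Likeness was Pearson r over 40 group means. Alternatives were another scaling (RLE), no low-count filter, the HepaRG batch as a block, DESeq2 1.42.0, all libraries in 1 fit, leaving out each batch, and leaving out libraries that stood apart (chosen after seeing the data). To check the pairing by batch, residuals around the group mean were correlated between libraries of a chemical, with a median r of 0.0361 over 232 pairs of the same batch and -0.0145 over 464 pairs of different batches. Of the companion lists 1 is not reported here. The edgeR steps were tested on simulated data. The members and gene lists were chosen with earlier results of these data known.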

Additional observations from a re-analysis of the deposited data

Results flagged for a closer look

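The change from C1 to C5 differed among the 8 chemicals for 4 member rows by the F test of the interaction. The adjusted p was 2.06e-05 for TET1, 0.000701 for DNMT3A_27133, 0.0214 for DNMT3A_1932 and 0.0254 for MBD4. Without trichostatin A it was 0.211 for TET1, 0.00271 for DNMT3A_27133, 0.0220 for DNMT3A_1932 and 0.304 for MBD4. Without batch 1, 2 or 3 it was at most 0.00934 for TET1, and the calls of MBD4 and DNMT3A_1932 were lost without batch 1 (0.195 and 0.161) and without batch 2 (0.680 and 0.484), that of DNMT3A_27133 without batch 1 (0.0694). Without trichostatin A C1 replicate 3, that of MBD4 was lost (0.0919).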

How the results depend on the processing

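Of the 12 member calls at C5, 12 were shared with RLE scaling, with no low-count filter, with the replicate block and with DESeq2, and 11 with all libraries in 1 fit. Leaving out batch 1, 2 or 3 left 10, 9 and 9 of them. Without batch 2 the calls of MBD4 in vorinostat and DNMT3A in scriptaid did not pass and TET3 in vorinostat was not tested. Member calls at C5 ranged over the left-out batches from 0 to 1 in apicidin and in valproic acid, from 1 to 2 in mocetinostat and in scriptaid, and from 1 to 3 in vorinostat. With all libraries in 1 fit there were 4 in mocetinostat and 0 in valproic acid. In panobinostat there were 2 with no low-count filter, with the replicate block and with DESeq2, the added call being UHRF1, and the replicate block changed no other call at C5. Calls by slope ranged from 1 to 2 in apicidin, mocetinostat and vorinostat over the left-out batches, were 2 in apicidin by adjusted p alone, and 1 in scriptaid without C4 replicate 3. Over all chemicals, calls at C2 were 0 to 1 over the left-out batches and 1 with all libraries in 1 fit. At C3 they were 0 to 2, and 2 with no filter, 3 by DESeq2 and 4 with all libraries in 1 fit. At C4 they were 3 to 5 over the left-out batches. Rows that differed among chemicals numbered 2 without trichostatin A and 1 to 3 over the left-out batches. The cause was not tested. Fewer libraries entered each fit with a batch left out. DNMT1, DNMT3B and DNMT3A_1932 were limited by counts.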
